A study of Triticum aestivum with 18 samples.

Results

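The genes described here are the wheat probe sets that the study's MapMan annotation filed under cell wall modification and that its descriptions did not name as expansins. The rule found 61 members among the 61179 wheat probe sets of the array, carried by 49 sequence accessions, of which 11 are read by several probe sets. The class of cell wall modification held 132 probe sets in all, and the 71 left out by the rule are expansins. Most members, 44 probe sets of 35 accessions, were described by a match to an Arabidopsis xyloglucan endotransglucosylase/hydrolase (XTH). A further 13 members carry an accession and no match, so that for them only the class assignment speaks for a role in the wall. The remaining 4 matched rice entries abbreviated EXB or EXLA, which are β-expansins and expansin-like proteins that the wording of the rule left in. Of the matches, 19 were graded moderate, 22 weak and 7 very weak, so an Arabidopsis name below says which gene was closest and not that the wheat gene is its counterpart. The label therefore fits the XTH matches, and fits the other members only as far as their class assignment.

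Gene expression was measured in a single Chinese bread wheat cultivar (Triticum aestivum) on 18 Affymetrix Wheat Genome Arrays, with 3 replicates for each of 6 groups. Seeds imbibed pure water (CK_embryo and CK_endosperm), 100 mg/L of the hormone abscisic acid (ABA_embryo and ABA_endosperm) or 100 μmol hydrogen peroxide (H2O2_embryo and H2O2_endosperm). Embryo and endosperm were dissected by hand, with 16 h taken as the imbibition time of all 6 groups. All seeds had the same genotype, temperature and darkness. The stage named for harvest was the radicle just through the seed coat. Whether treated and CK seeds matched in both time and stage could not be checked here. The part of stage in the treatment differences was not tested. An endosperm sample taken in this way can hold aleurone and coat layers beside the starchy endosperm, and in such bulk tissue fewer cells of a type and less RNA per cell cannot be told apart.

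XTH enzymes cut xyloglucan, a hemicellulose that lies between cellulose microfibrils, and either join the cut end to another chain (transglucosylation) or release it with water (hydrolysis). Both reactions reshape the wall while cells expand, and in grasses, whose walls hold little xyloglucan, some family members also act on other wall glucans. During germination the embryo must elongate and the tissues around it must give way, and abscisic acid is the hormone that holds this step back, whereas hydrogen peroxide is a signal and an oxidant that can loosen walls and promote it.

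Signals are MAS5 values on a linear scale, and differences are log2 values after a floor of 10, taken only within a probe set. Where members are ranked by signal, the rank is of signals and not of transcript amounts. One array stood apart. H2O2_embryo replicate 1 had a median signal of 137.9 against 59.01 to 81.04 on the other 17 arrays, and 6.79% of its probe sets lay under 10 against 17.5% to 20.8%. It was the highest of its group for 37 of the 61 members and more than 2-fold above both other replicates for 23, where any other array was so for 1 to 6. An α-gliadin probe set, which marks starchy endosperm, read 851.7 on it, and the 2 glutenin probe sets read at embryo level. The endosperm-rich member CK163798 read 46.2 on it, as low as on the other CK and H2O2 embryo arrays. Why this array stood apart was not tested. The part of this array in the results was tested by leaving it out. The embryo marker wheat germ agglutinin read 1485 to 1686 in CK_embryo and 272.6 to 412.8 in CK_endosperm, and the summed signal of the 3 gliadin and glutenin probe sets was 110.3 to 144.2 in CK_embryo and 496.0 to 655.1 in CK_endosperm, so both labels held. Under ABA the agglutinin signal was 16270.0 to 19090.0 in the embryo and 4162 to 4273 in the endosperm, and the storage sum in the endosperm was 1405 to 1643 under ABA and 939.9 to 1463 under H2O2. Their part in the differences below was not tested.

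In the embryo more of these genes passed the test under ABA than under H2O2, and some rose while others fell. Of the 60 members that passed the filter on low signals, 17 differed between ABA_embryo and CK_embryo, 6 higher and 11 lower, against 5.74% of all probe sets tested. In the endosperm ABA changed 13, 3 higher and 10 lower, with a background of 6.87%. H2O2 changed 2 in the embryo, 1 in each direction, where the background was 0.531%, and 7 in the endosperm, 1 higher and 6 lower (0 and 6 under quantile normalization), where it was 5.46%. As shares of the 60 members these are 28.3%, 21.7%, 3.33% and 11.7%. All these calls are those of limma at an adjusted p under 0.05. For each call the 3 arrays of one group lay wholly above those of the other. That separation was also found without a call. Of the 61 members, ABA_embryo lay wholly above CK_embryo for 15 and wholly below for 16, with 17 calls. ABA_endosperm gave 9 above and 20 below (13 calls), H2O2_embryo 10 and 4 (2 calls), and H2O2_endosperm 7 and 11 (7 calls). Separation of the arrays alone thus does not mark a call. How many of all probe sets separate in this way was not counted. These numbers therefore cannot be read as a trait of the members. Signal level bears on the shares. The geometric mean signal was at least 1000 for 9 members, between 100 and 1000 for 18 and under 100 for 34, down to 11.46 for CA623783, the 1 member that was not tested. Among probe sets of at least 100, a limit chosen after the values were seen, ABA in the embryo changed 14 of 27 members and 12.5% of all, ABA in the endosperm 11 of 27 members and 14.4% of all, H2O2 in the embryo 2 of 27 and 1.16%, and H2O2 in the endosperm 6 of 27 and 11.3%. The median log2 difference of the members was 0.11 for ABA in the embryo (all probe sets -0.05) and -0.24 in the endosperm (all -0.10), and 0.36 for H2O2 in the embryo (all 0.12) and -0.13 in the endosperm (all 0.00). The log2 difference was above 0 for 31, 21, 44 and 25 of the 60 members in these 4 comparisons, and for the third, H2O2 in the embryo, the array that stood apart was the highest of its group for most members. Without H2O2_embryo replicate 1 the 4 counts were 20, 20, 2 and 11, with every earlier call kept, and the share of all probe sets rose to 12%, 15.6%, 1.36% and 13.8%.

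**Figure D1:**
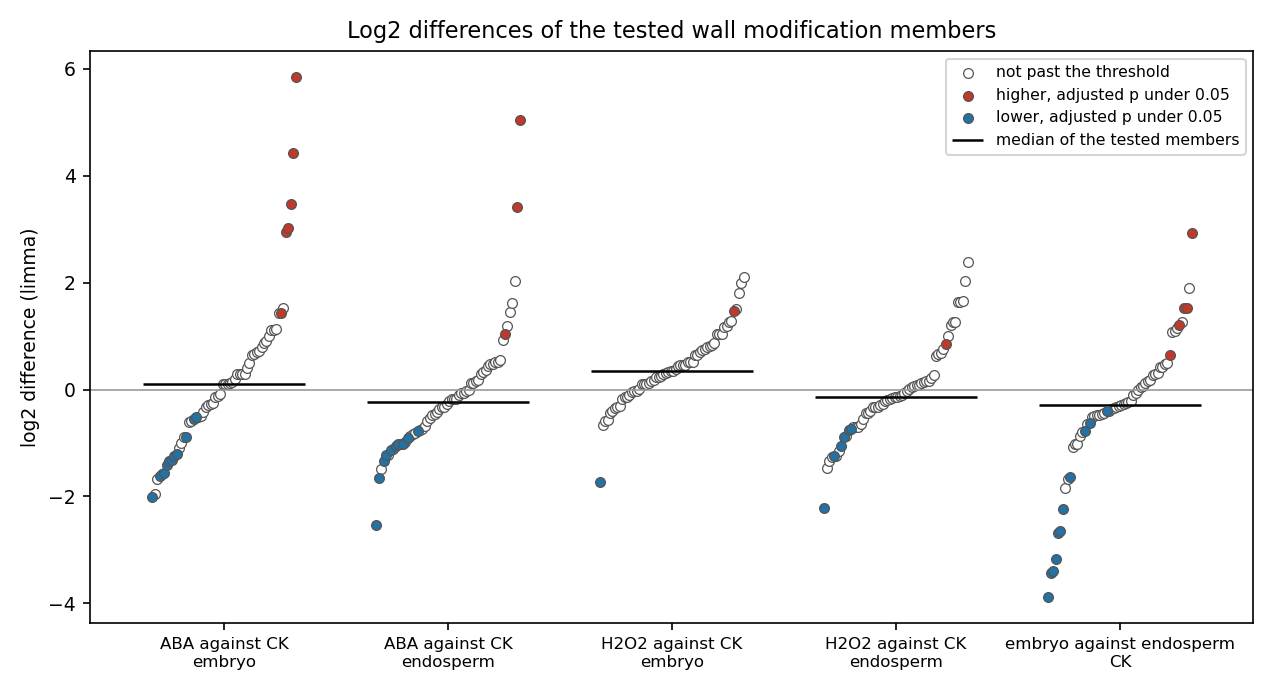
Log2 differences (limma) of the 60 tested members in 5 comparisons, each point a probe set sorted by value, with filled points past an adjusted p of 0.05 and a line at the median. ABA gave the widest spread, from -2.01 to 5.85 among the called members of the embryo, while H2O2 in the embryo left 2 filled points.

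The largest rises under ABA were in genes for which no match was given. BJ250245 read 3.29, 27.3 and 10.65 in CK_embryo and 803.1, 962.7 and 729.3 in ABA_embryo. In the endosperm it read 199.5, 136.8 and 137.3 in CK and 1605, 1733 and 1665 under ABA. Every ABA array was above every CK and H2O2 array of its tissue, and the H2O2 arrays read 3.004 to 54.9 in the embryo and 124.0 to 276.3 in the endosperm. The log2 difference was 5.85 in the embryo (95% interval 4.81 to 6.89, limma adjusted p = 5.13e-08), a size that rests on the floor because the CK mean lies under 20, and 3.42 in the endosperm (10.73-fold, adjusted p = 0.000106). BQ169416 read 3.57, 31.6 and 27.8 in CK_embryo against 431.4, 488.1 and 411.4 in ABA_embryo. In the endosperm its CK arrays read 55.2, 5.49 and 11.3 and its ABA arrays 681.6, 586.2 and 568.4. Every ABA array was above every CK and H2O2 array of its tissue. The log2 difference was 4.42 in the embryo (limma adjusted p = 0.000345) and 5.05 in the endosperm (adjusted p = 9.8e-05), and both sizes rest on the floor, since 1 CK array of each tissue lay under 10. H2O2 passed the test for neither (adjusted p of 0.44 to 0.94 in limma), and both were higher under ABA than under H2O2 in each tissue, by log2 differences of 3.30 to 4.99. The encoded proteins of both are not identified by the descriptions used here.

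Among the XTH matches, CK163798 and CA680143 rose in the embryo. Both were closest to Arabidopsis AT5G57540, the probe sets share a cluster stem on the array, and CK163798 also matched rice XTH8. CK163798 was low and even in CK_embryo, at 58.1, 59.9 and 58.3, and read 566.7, 671.7 and 718.4 in ABA_embryo. In the endosperm it was already high in CK, at 936.8, 881.5 and 782.0, and read 1790.0, 1622 and 1903 under ABA and 1786, 1555 and 1391 under H2O2. The embryo under ABA thus came close to the level of the untreated endosperm. The rise was 11.1-fold in the embryo (log2 3.47, 95% interval 3.10 to 3.83, limma adjusted p = 1.25e-11) and 2.05-fold in the endosperm (adjusted p = 0.000588), and the difference between the tissues, 2.43 on the log2 scale, was itself significant (adjusted p = 2.85e-06). In the endosperm H2O2 raised it 1.81-fold (limma adjusted p = 0.00478), and in the embryo the arrays read 46.2, 65.7 and 50.1 with no call. Quantile normalization ended both calls in the endosperm. One probe set of CA680143 read 8.64, 13.6 and 14.7 in CK_embryo and 71.4, 113.4 and 112.0 in ABA_embryo (log2 2.94, limma adjusted p = 0.00116, a size that rests on the floor). Its second probe set passed only narrowly (log2 3.02, adjusted p = 0.0495) and in 6 of 18 fits with 1 array left out. Both calls were lost with a floor and filter of 110, and the second also with a floor of 1, without the filter and without the trend. In the endosperm neither CA680143 probe set passed the test under ABA.

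CK212850, closest to Arabidopsis TCH4, an XTH known as a touch-induced gene, rose in the embryo only modestly and from a higher level. Its CK_embryo arrays read 335.1, 274.0 and 225.9 and its ABA_embryo arrays 794.7, 712.5 and 731.3. All other groups lay between 167.8 and 335.1. The rise was 2.71-fold (log2 1.44, limma adjusted p = 0.000110), the endosperm difference was 0.16 (95% interval -0.29 to 0.61), and the tissue difference of 1.28 was significant (adjusted p = 0.0242) but was lost under quantile normalization and kept in 10 of 18 fits with 1 array left out, being lost without CK_embryo replicate 2 or 3, CK_endosperm replicate 1, any ABA_embryo array, or ABA_endosperm replicate 2 or 3.

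**Figure D2:**
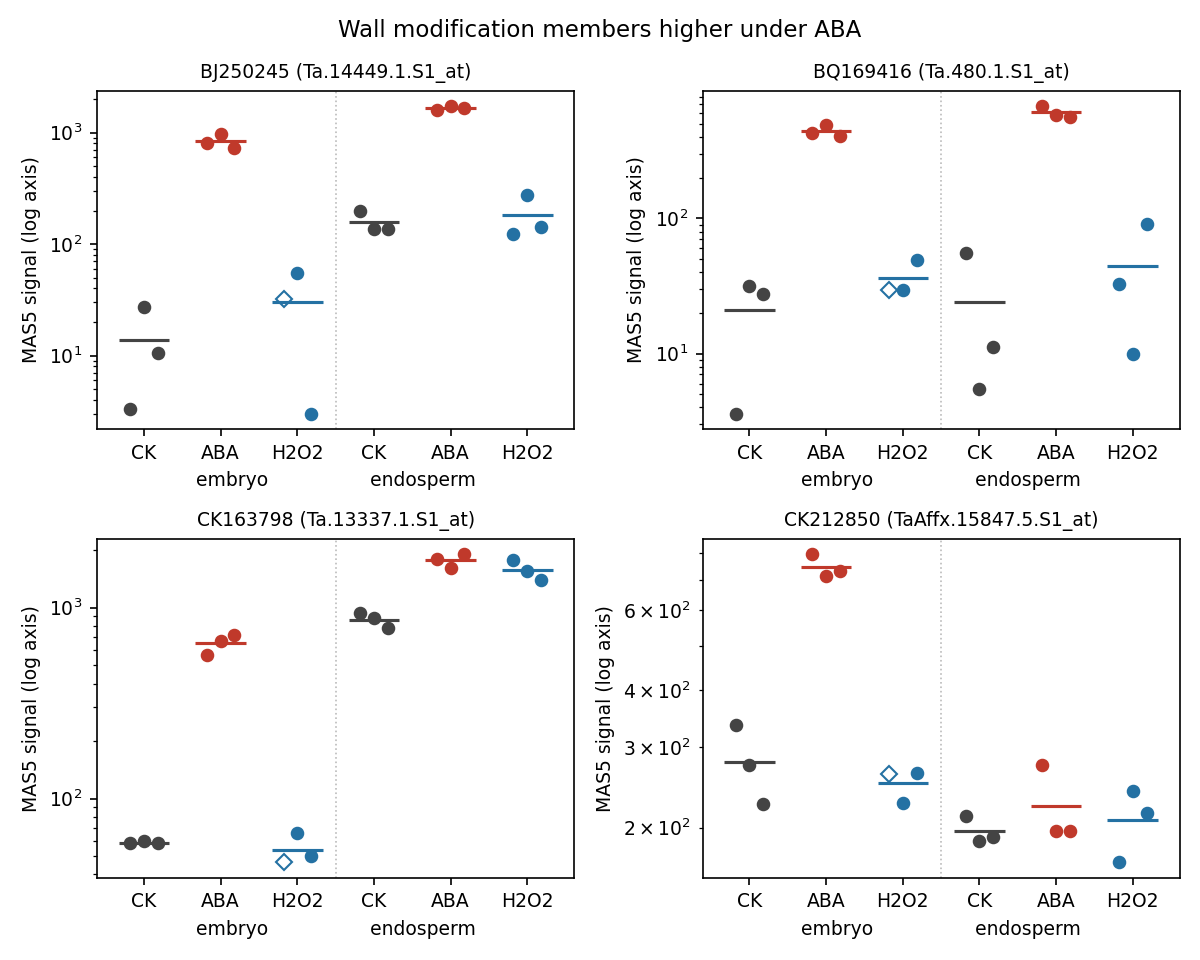
MAS5 signal (log axis) of 4 members on each of the 18 arrays, with points for arrays, lines for group means and an open diamond for H2O2_embryo replicate 1. BJ250245 and BQ169416 were high under ABA in both tissues, CK163798 rose from 58.1-59.9 to 566.7-718.4 in the embryo, and CK212850 was high in ABA_embryo alone of the 6 groups.

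The members lowered under ABA included several of those with the highest signals. CD866709, closest to Arabidopsis XTH9, read 5037, 4839 and 4717 in CK_embryo and 1861, 2115 and 1880.2 in ABA_embryo on its x_at probe set, a type that can also bind related transcripts. In the endosperm the same probe set read 6707, 6433 and 6249.98 in CK, 3350.3, 2842 and 3102 under ABA and 3567, 4096 and 3952 under H2O2. ABA thus lowered it in both tissues and H2O2 in the endosperm only. The falls were 2.495-fold in ABA_embryo (log2 -1.32, limma adjusted p = 1.28e-08), 2.09-fold in ABA_endosperm (adjusted p = 6.04e-07) and 1.67-fold in H2O2_endosperm (adjusted p = 0.000123). In H2O2_embryo the difference was -0.02 (95% interval -0.24 to 0.19), and the H2O2 effect differed between the tissues by 0.72 (limma adjusted p = 0.0064). The second probe set gave -1.33, -0.92 and -0.77 for the same 3 falls.

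BJ319552, one of 2 matches to AT2G36870, whose Arabidopsis group is known for xyloglucan hydrolysis rather than for rejoining chains, was embryo-rich and fell there under ABA. It read 4150.4, 6454 and 5351 in CK_embryo, 1323, 1433 and 1158 in ABA_embryo and 2447, 5674 and 5152 in H2O2_embryo. The ABA arrays lay far below all others of the embryo. The fall was 4.03-fold (log2 -2.01, 95% interval -2.54 to -1.47, limma adjusted p = 1.52e-05). In the endosperm, where CK arrays read 2214 to 2326 and ABA arrays 1126 to 1655, the difference of -0.75 did not pass (adjusted p = 0.094), and neither did the difference between the tissues (-1.26, adjusted p = 0.075). The other match to this gene, CK216018, was dim, between 2.39 and 110.2, and was called nowhere.

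CA606310, closest to XTH20, read 613.9, 522.4 and 555.1 in CK_embryo and 178.7, 172.7 and 202.3 in ABA_embryo on its x_at probe set. In the endosperm it read 192.0, 174.7 and 220.4 in CK and 127.1, 87.1 and 52.3 under ABA. The groups did not overlap in either tissue, and the falls were 3.06-fold in the embryo (limma adjusted p = 0.000704) and 2.34-fold in the endosperm (adjusted p = 0.00948). The endosperm call was lost without ABA_endosperm replicate 3 and in a fit of only the groups compared. Its second probe set fell 2.95-fold in the embryo (limma adjusted p = 0.0314, lost under quantile normalization, without the trend and without any CK_embryo or ABA_embryo array). In the endosperm that probe set was not called under ABA. CA638283, closest to XTR3 and named after its values were seen, fell alike in the embryo, from 477.4, 497.2 and 513.3 to 162.0, 268.0 and 149.3 (2.66-fold, limma adjusted p = 0.0371). That call was lost under quantile normalization, without the filter, without the trend and without any CK_embryo array or ABA_embryo replicate 1 or 3.

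CA644687 and CK193247 were lower under ABA in both tissues. CA644687, closest to XTR7, read 498.3, 573.7 and 572.3 in CK_embryo and 332.0, 265.2 and 298.1 in ABA_embryo. In the endosperm it read 501.5, 478.7 and 694.1 in CK, 264.6, 240.5 and 160.1 under ABA and 210.3, 276.7 and 213.4 under H2O2. Both treatments thus lowered it in the endosperm, by 2.54-fold under ABA (limma adjusted p = 0.000503) and 2.38-fold under H2O2 (limma adjusted p = 0.00168). In the embryo ABA lowered it 1.84-fold (limma adjusted p = 0.02, lost without replicate 2 or 3 of either group) and H2O2 gave no call (-0.30, 95% interval -0.77 to 0.17). Neither treatment effect on CA644687 differed between the tissues past the threshold. CK193247 is listed in the study as TaXTH2, a wheat XTH. It read 278.3, 321.7 and 295.7 in CK_embryo and 110.1, 139.1 and 131.4 in ABA_embryo. Its endosperm arrays read 255.7, 493.4 and 331.7 in CK and 167.6, 68.1 and 118.4 under ABA. It fell 2.36-fold in the embryo (limma adjusted p = 0.0248) and 3.14-fold in the endosperm (adjusted p = 0.00252). The embryo call was lost under quantile normalization, without the trend and without any array of either group. No H2O2 call was made for it.

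**Figure D3:**
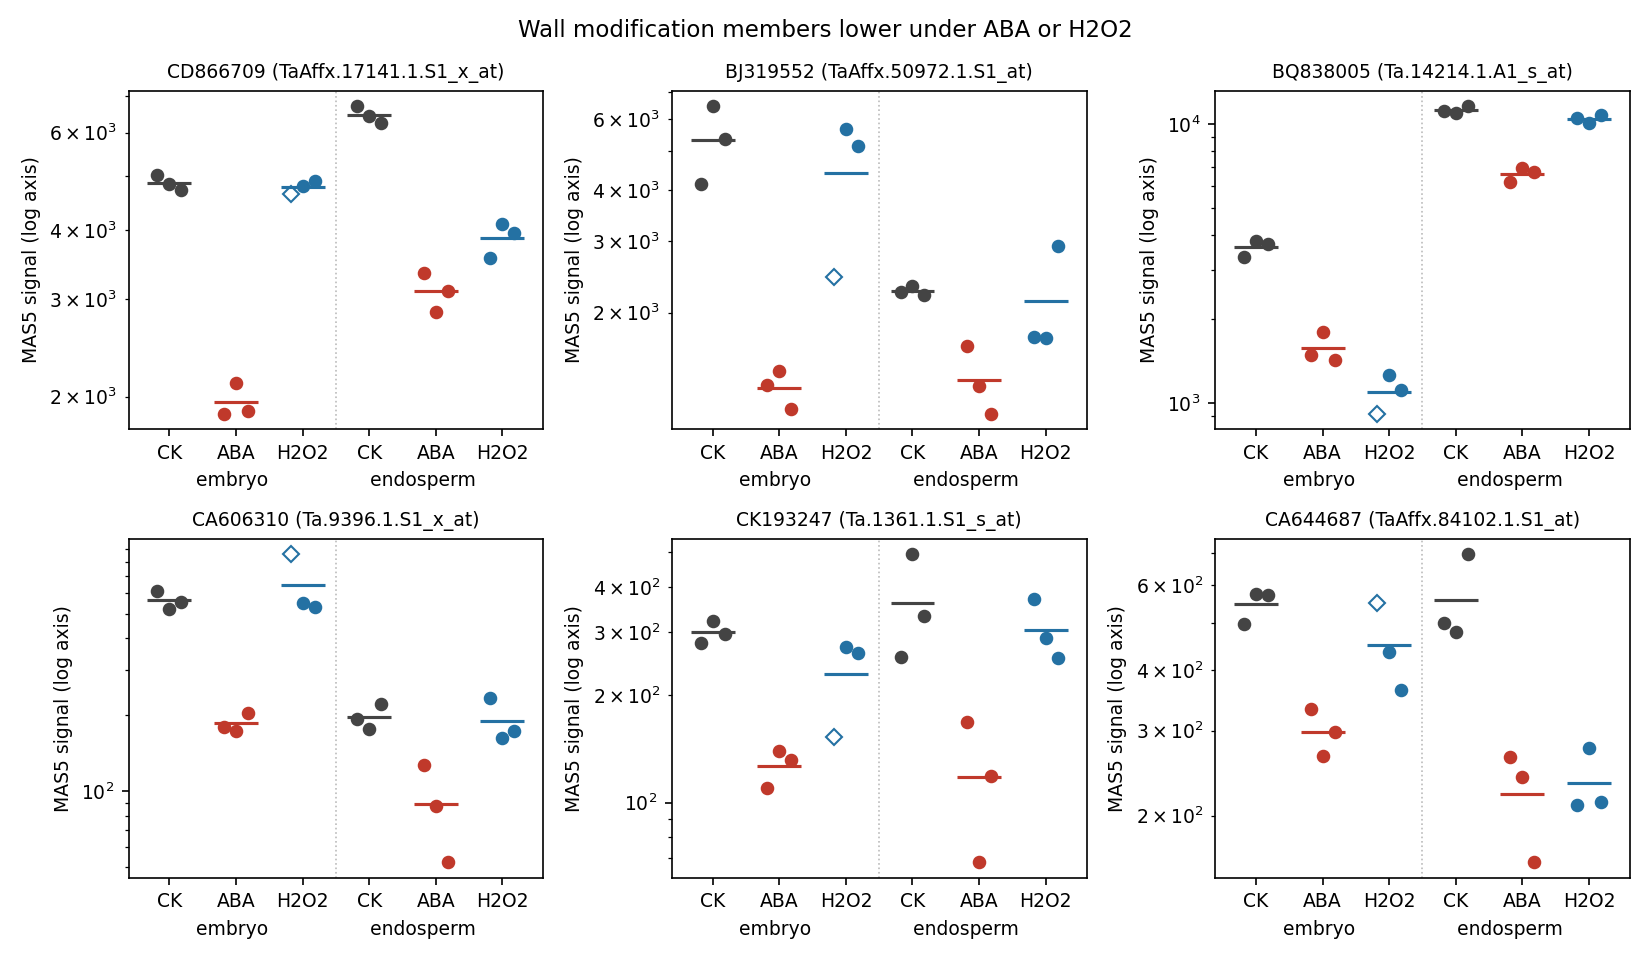
MAS5 signal (log axis) of 6 members on each array, with points for arrays, lines for group means and an open diamond for H2O2_embryo replicate 1. Each was lower in ABA_embryo than in CK_embryo. CD866709 and CA644687 were also lower in H2O2_endosperm than in its CK, and BQ838005 was lowest in H2O2_embryo.

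BQ838005, a member matched to rice EXB11, an entry for a β-expansin, a protein type that loosens grass walls without cutting them, was the 1 member lowered by H2O2 in the embryo. It read 3335, 3806 and 3697 in CK_embryo, 1479.8, 1794 and 1423 in ABA_embryo and 912.0, 1256 and 1109.9 in H2O2_embryo. In the endosperm it read 11131, 10960.0 and 11603 in CK, 6172, 6936 and 6708 under ABA and 10471, 10075 and 10769 under H2O2. The fall under H2O2 was 3.33-fold in the embryo (log2 -1.74, limma adjusted p = 9.78e-08) and -1.61 on the log2 scale without H2O2_embryo replicate 1, against -0.11 in the endosperm (95% interval -0.36 to 0.15). The difference between the tissues was -1.63 (limma adjusted p = 1.23e-05). ABA lowered it in both tissues, by 2.32-fold in the embryo (adjusted p = 6.71e-07) and 1.70-fold in the endosperm (adjusted p = 0.000315). In a fit of only the 6 arrays compared the H2O2 call was lost. Of the other rice matches, AJ131338 and CA728894 were tested and called nowhere.

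The 1 member raised by H2O2 in the embryo was a probe set of CA631663, closest to Arabidopsis XTH23, and its value depended on the array that stood apart. The x_at probe set read 4913, 5519 and 5419 in CK_embryo and 32347, 11146 and 8741 in H2O2_embryo, so that all H2O2 arrays were higher. The rise was 2.78-fold (log2 1.47, limma adjusted p = 0.0262) with replicate 1 and 0.90 on the log2 scale (adjusted p = 0.00065) without it. The call was lost without any of the 3 CK_embryo arrays, without the trend and in a fit of only the groups compared. The s_at probe set read 18821, 8394 and 6366 against 6126, 5994 and 6385 in CK_embryo, which overlap, and gave no call (adjusted p = 0.26). In ABA_endosperm the x_at probe set read 2306, 1983 and 2074 against 3758, 4663 and 4481 in CK (2.02-fold lower, limma adjusted p = 0.0449) and the s_at probe set was 2.18-fold lower (adjusted p = 0.0121), while both differences stayed within 0.20 of CK in ABA_embryo on the log2 scale. The x_at call was kept in 4 of 18 fits with 1 array left out and was lost without the trend, without the filter and with the replicate block, and the s_at call was lost without the trend and without CK_endosperm replicate 3, ABA_endosperm replicate 2 or ABA_endosperm replicate 3. The ABA effects of the tissues did not differ past the threshold (adjusted p of 0.078 and 0.21).

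CK214572, a second accession closest to XTH23, was lower in the endosperm under both treatments on 1 of its 3 probe sets, and the probe sets disagreed in the embryo. On its x_at probe set the CK_embryo arrays read 217.2, 264.4 and 239.6, the ABA_embryo arrays 379.6, 415.6 and 348.4 and the H2O2_embryo arrays 377.7, 276.0 and 391.1. In the endosperm the CK arrays read 346.4, 399.7 and 284.6, the ABA arrays 139.8, 208.1 and 160.4 and the H2O2 arrays 146.0, 148.1 and 198.9. The treated arrays were thus all above CK in the embryo and all below it in the endosperm. The falls in the endosperm were significant, 2.04-fold under ABA (limma adjusted p = 0.00742) and 2.09-fold under H2O2 (adjusted p = 0.00735), the embryo differences of 0.67 and 0.52 were not (adjusted p of 0.12 and 0.32), and the tissue differences were, at 1.69 for ABA (adjusted p = 0.00415) and 1.59 for H2O2 (adjusted p = 0.00721). Of its other probe sets, the a_at set was lower under H2O2 in the endosperm by 1.86-fold (limma adjusted p = 0.00282) and differed between the tissues under H2O2 by 1.14 (adjusted p = 0.00975), and the third was called in no comparison. The third probe set had negative log2 differences in both tissues, at -0.25 for ABA and -0.41 for H2O2 in the embryo, then -0.76 and -0.71 in endosperm, with tissue differences of 0.51 and 0.30.

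Of the other members with no match, CK165153, BJ263153 and BU100548 fell in 1 treatment comparison each. CK165153, a member with a high signal, read 4564, 4589 and 4335 in CK_embryo and 3111, 3149 and 3212 in ABA_embryo on 1 probe set (a 1.42-fold fall, limma adjusted p = 0.00188), and the second probe set fell 1.47-fold (adjusted p = 0.00275). BJ263153 read 66.8, 35.3 and 106.4 in CK_endosperm and 12.7, 8.01 and 4.28 in ABA_endosperm, so the size of its log2 difference of -2.54 (limma adjusted p = 0.0282) rests on the floor. BU100548 was lowered by H2O2 in the endosperm, from 88.6, 83.6 and 107.6 to 31.1, 12.8 and 19.98 (log2 -2.21, limma adjusted p = 0.0138). Its embryo arrays under H2O2 read 96.7, 132.5 and 141.0 against 104.1 to 126.4 in CK. For none of these accessions did a treatment effect differ between the tissues past the threshold. The BU100548 call was lost in a fit of only the groups compared, with a floor and filter of 110 and without CK_endosperm replicate 3 or H2O2_endosperm replicate 2. The BJ263153 call was lost with a floor of 1 and without CK_endosperm replicate 1 or 3 or any ABA_endosperm array.

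D16457, the wheat sequence long known as an endoxyloglucan transferase and named here after its values were seen, had a high signal and was called in no comparison. It read 2922, 3158 and 2880.4 in CK_embryo, 3658, 3939 and 3349.9 in ABA_embryo and 8237, 3607 and 3394 in H2O2_embryo. The endosperm arrays read 2163 to 2252 in CK, 2628 to 2785 under ABA and 2467 to 2522 under H2O2. In both tissues its treated arrays lay above all CK arrays, by 0.29 and 0.30 on the log2 scale for ABA (95% intervals -0.15 to 0.73 and -0.14 to 0.74).

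The tissue difference itself was significant under ABA for 3 members, CK163798, CK212850 and CK214572, all more positive in the embryo, where 2.64% of all probe sets were called. For H2O2 it was significant for 7 members, with a background of 3.63%. Of these, 5 were more positive in the embryo (both CD866709 probe sets, 2 of CK214572 and the x_at probe set of CA631663) and 2 more negative (BQ838005 and CK163798). Without H2O2_embryo replicate 1 the counts were 12 and 8, while the share of all probe sets rose to 8.94% and 8.72%. That array is in no group of the ABA contrast, whose log2 values are the same without it, and only the common spread and the set of probe sets tested changed.

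**Figure D4:**
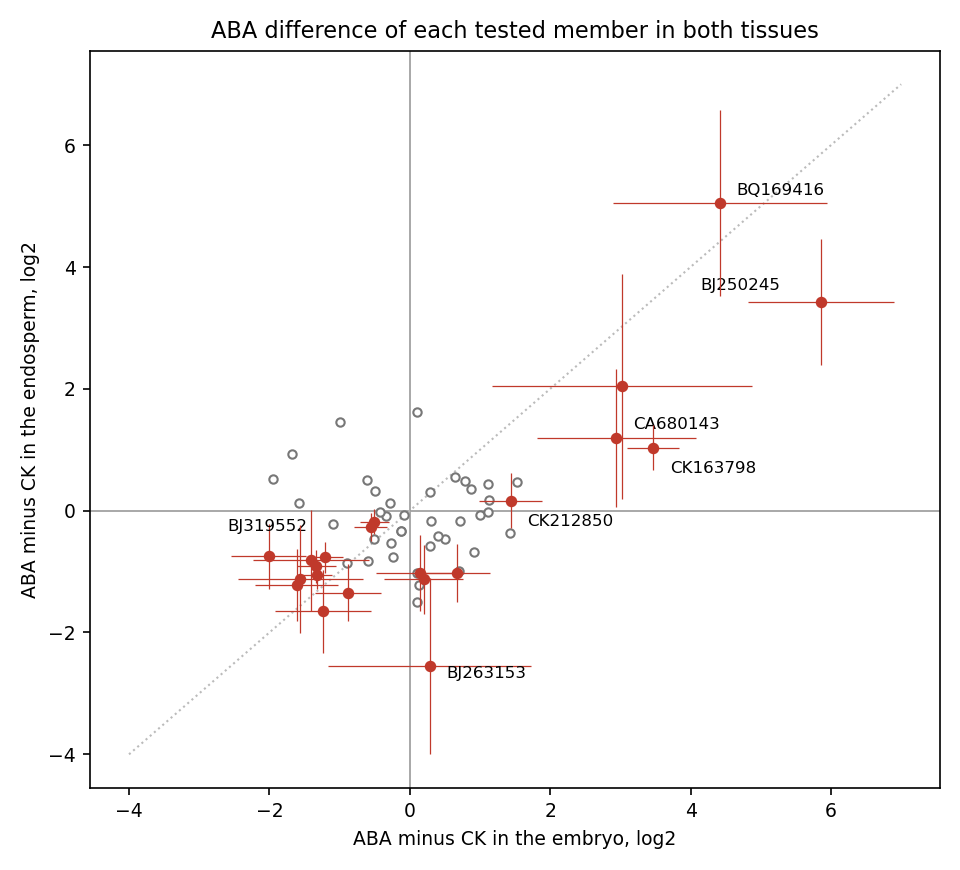
ABA minus CK on the log2 scale in the embryo (x axis) and the endosperm (y axis) for each tested member, red with 95% intervals where called in either tissue and open where not, with a dotted line of equal difference. BQ169416 and BJ250245 lie high in both, CK163798 at 3.47 and 1.03, and CK212850 at 1.44 and 0.16.

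In untreated seeds 16 members differed between the tissues, 5 higher in the embryo and 11 higher in the endosperm, a share of 26.7% against 18.2% of all probe sets. Among probe sets of at least 100 the shares were close, 40.7% of the members (11 of 27) and 36.7% of all. The endosperm-rich members were led by CK163798, 14.7-fold higher there (limma adjusted p = 2.02e-12), followed by BJ250245 (10.9-fold, limma adjusted p = 3.19e-05) and CA686606, closest to AT5G57530. The a_at probe set of CA686606 read 47.5, 36.9 and 1.49 in CK_embryo and 183.0, 272.0 and 259.0 in CK_endosperm (log2 -3.17, limma adjusted p = 0.000304) and its x_at probe set differed by -3.39. BJ263153 and 1 probe set of CA680143 differed by -2.66 and -2.69 in the same sense. Except for CK163798 these sizes rest on the floor. The BJ250245 and CA680143 calls were lost with a floor and filter of 110, and the other CA680143 probe set gave no call. CK196945, closest to Arabidopsis XTR2, read 187.7, 144.1 and 205.4 in CK_embryo and 973.9, 877.2 and 674.4 in CK_endosperm. It was 4.70-fold higher in the endosperm (limma adjusted p = 9.69e-07) and passed the test under neither treatment in either tissue. The embryo-rich members were BJ319552 (2.31-fold, limma adjusted p = 0.00169), CA606310 on its x_at probe set (2.89-fold, adjusted p = 0.000485) and CA638283 (2.87-fold, adjusted p = 0.00882). They also included BJ285564 (log2 2.93, limma adjusted p = 0.0204, a size that rests on the floor) and CK208387 (1.57-fold, adjusted p = 0.0328), the last closest to XTH30. The second CA606310 probe set gave no call. The CK208387 call was lost under quantile normalization, 75th percentile scaling and without the trend. It was also lost without any CK_embryo array or CK_endosperm replicate 1 or 3. The BJ285564 call was lost with a floor and filter of 110 and without replicate 1 or 2 of either tissue. Of these 5, the first 3 were also lowered by ABA in the embryo. These comparisons share the CK_embryo arrays.

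ABA and H2O2 were also compared directly. In the embryo 18 members differed, 7 higher and 11 lower under ABA, with a background of 10.5%, and in the endosperm 5, 2 higher and 3 lower (2 and 1 under quantile normalization), with a background of 3.44%. Most of the embryo members are those described above. CD866709 was 2.46-fold lower under ABA than under H2O2 (limma adjusted p = 1.41e-08), CK163798 12.2-fold higher (adjusted p = 6.46e-12) and BQ838005 1.44-fold higher (adjusted p = 0.00711). The BQ838005 call was lost without the trend, in a fit of only the groups compared and without ABA_embryo replicate 2. Without H2O2_embryo replicate 1, 16 of the 18 remained, BQ803123 and CA640227 were lost and 3 were gained, with 13.1% of all probe sets called. BQ803123 read 296.8 on that array and 27.3 and 32.01 on the others of its group. In the endosperm the 5 members were BJ250245, BQ169416, the x_at probe set of CA606310, CK193247 and BQ838005. Without that array the endosperm count was 13, with 9.67% of all probe sets called.

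The other wall genes of the same annotation were counted for comparison. The share of all probe sets called was 5.74% (ABA, embryo), 6.87% (ABA, endosperm), 0.531% (H2O2, embryo) and 5.46% (H2O2, endosperm). Of 69 expansins tested, which loosen walls without hydrolysis, ABA raised 1 and lowered 15 in the embryo. In the endosperm it raised 1 and lowered 9. H2O2 raised 2 and lowered 7 in the endosperm and changed 0 in the embryo. Of 54 cellulose synthesis probe sets ABA lowered 9 in each tissue. H2O2 lowered 6 and raised 1 in the endosperm and raised 1 in the embryo. Of 19 cellulases and β-1,4-glucanases ABA lowered 5 in the embryo and raised 1 and lowered 1 in the endosperm. H2O2 lowered 1 of them in the embryo and raised 1 in the endosperm. Of 63 pectate lyases and polygalacturonases, which cut pectin, ABA raised 2 and lowered 1 in the embryo. In the endosperm ABA raised 1 of them, and H2O2 raised 1 and lowered 1. Of 23 pectin methylesterases ABA lowered 1 in the embryo. In the endosperm ABA raised 1 and lowered 1, and H2O2 raised 1. Of 11 hemicellulose synthesis probe sets 1 was called in the 4 treatment comparisons, higher in ABA_endosperm. As shares, in the order given for all probe sets, the expansins had 23.2%, 14.5%, 0% and 13%. Cellulose synthesis had 16.7%, 16.7%, 1.85% and 13%. Cellulases and β-1,4-glucanases had 26.3%, 10.5%, 5.26% and 5.26%. Pectate lyases and polygalacturonases had 4.76%, 1.59%, 0% and 3.17%, each under the background. Pectin methylesterases had 4.35%, 8.7%, 0% and 4.35%, and hemicellulose synthesis 0%, 9.09%, 0% and 0%. These counts and shares describe the lists. No difference between lists was tested.

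**Figure D5:**
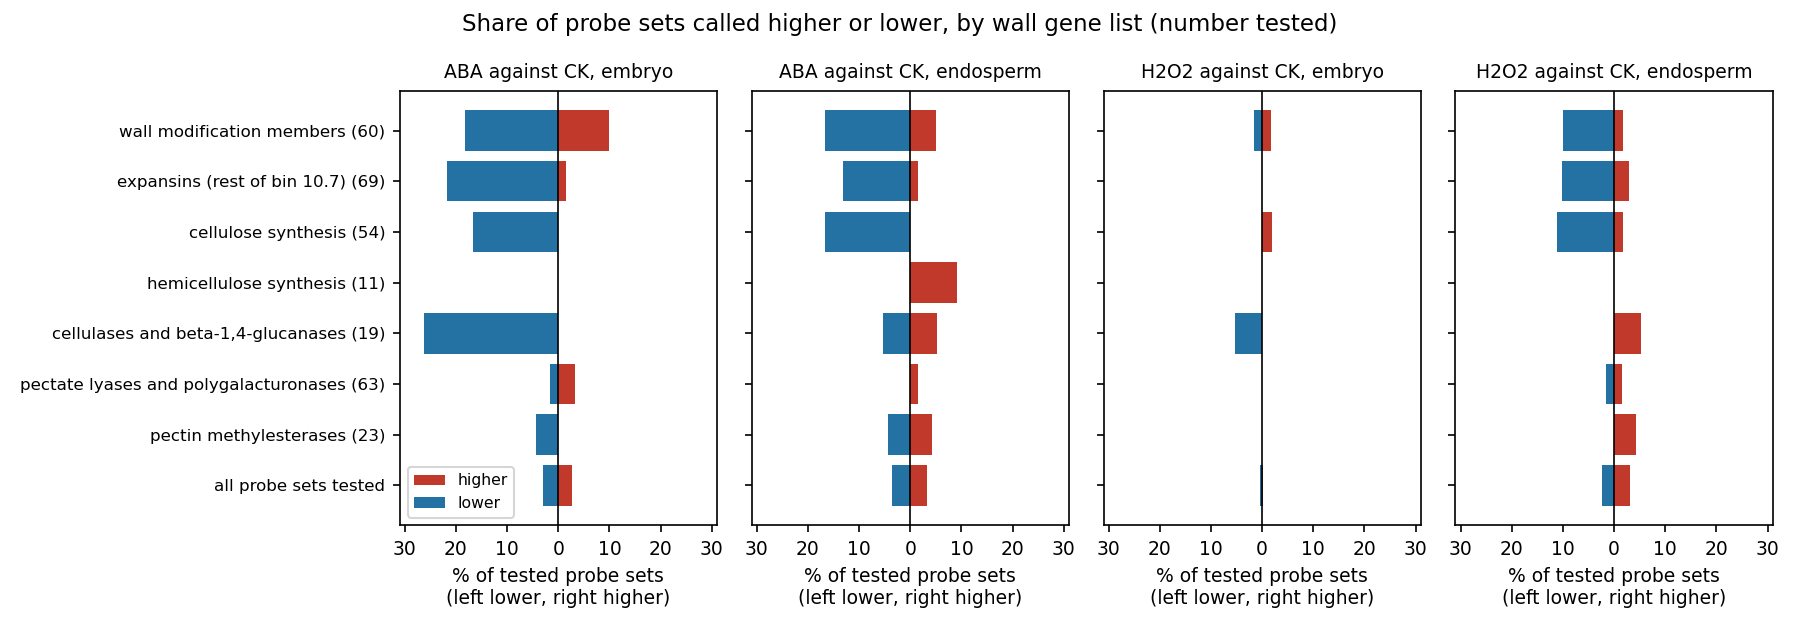
Share of tested probe sets called higher (right) or lower (left) in 4 comparisons (panels), for the wall modification members, 6 other wall gene lists (number tested in brackets) and all probe sets tested. The members had 6 higher and 11 lower under ABA in the embryo, and the expansins 1 higher and 15 lower.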

How the data were processed

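Total RNA of 18 samples (3 biological replicates of 6 groups, assigned from the sample labels) was hybridised to Affymetrix Wheat Genome Arrays. The authors made the deposited intensity values with Microarray Suite 5.0 (MAS5), which reduces the probes of a set to 1 linear signal and scales each array by 1 factor. The deposited table holds no detection calls. Control probe sets (111, 0.181%) were left out. Signals were floored at 10 and put on the log2 scale, and probe sets with a signal of 20 on at least 3 arrays (57992 of 61179) entered a linear model of 6 group means (limma 3.58.1, R 4.3.3) and a spread moderated along the mean level. The methods name SAM, which was not run, since 3 against 3 arrays allow few orders. P-values were adjusted by Benjamini-Hochberg over all probe sets tested, with 0.05 as the threshold. Tables and figures used Python 3.11.15 with pandas 2.3.3 and matplotlib 3.10.9. Arrays give no counts, and their number limits the precision. Members came from the study's annotation list, whose fold columns were not used, and the rule matched probe set names without regard to case.

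The members and the other gene lists were chosen with earlier results of these data known. Named are the called members of each comparison, at most the 8 with the largest difference, the 5 highest in signal, and further probe sets of those accessions. Alternatives were other floors, filters, scalings, spread models and array weights, a fit of the compared groups alone, the replicate number as a block, 1 probe set per accession and each array left out. Sequences and genome positions of the members were not used here.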

Additional observations from a re-analysis of the deposited data

Results flagged for a closer look

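The effect of a treatment on 10 probe sets differed between the tissues by a test of the difference itself (limma, adjusted p under 0.05), given as embryo minus endosperm on the log2 scale. For ABA these were CK163798 at 2.43, CK212850 at 1.28 and the x_at probe set of CK214572 at 1.69. For H2O2 they were the x_at probe set of CA631663 at 1.64, both probe sets of CD866709 at 0.78 and 0.72, CK163798 at -0.998, the a_at and x_at probe sets of CK214572 at 1.14 and 1.59, and BQ838005 at -1.63. Without H2O2_embryo replicate 1 the H2O2 values were 1.07 for CA631663, 0.91 and 0.74 for CD866709, -0.89 for CK163798, 1.07 and 1.52 for CK214572 and -1.51 for BQ838005, each still past the threshold. Other alternatives ended some calls. That of CK163798 for H2O2 was lost under quantile normalization, 75th percentile scaling, without the trend, in a fit of only the groups compared and in 7 of 18 fits with 1 array left out. That of CA631663 was lost without the filter, without the trend, in a fit of only the groups compared and in 7 of those 18 fits. That of the first CD866709 probe set was lost with 75th percentile scaling, without the trend, in a fit of only the groups compared and in 4 of those 18 fits, and that of the second without the trend. The ABA call of CK212850 was lost under quantile normalization and in 8 of the 18 fits. The calls of BQ838005 and CK214572 and the ABA call of CK163798 were kept in all these alternatives.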

How the results depend on the processing

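No named member changed direction under any alternative in a comparison where it was called. Counts of members called moved by over 1.5 times as follows. For H2O2 in the embryo (2) the count was 1 without the trend, 4 with array weights, 0 in a fit of only the groups compared (limma, with 4 at an unadjusted p under 0.05) and 1 with 1 probe set per accession. For the tissue difference of ABA (3) it was 10 with array weights and 12 in a fit of only the groups compared, and for that of H2O2 (7) it was 3 without the trend, 4 in a fit of only the groups compared and 4 with 1 probe set per accession. ABA against H2O2 gave 8 in the embryo (18) in a fit of only the groups compared, and in the endosperm (5) 3 under quantile normalization and 11 with array weights. With each array left out in turn the counts ran from 12 to 20 (ABA, embryo), 9 to 20 (ABA, endosperm), 1 to 6 (H2O2, embryo), 6 to 11 (H2O2, endosperm), 2 to 12 and 4 to 8 (tissue differences of ABA and H2O2), 14 to 20 (tissues in CK), and 14 to 19 and 3 to 13 (ABA against H2O2 in embryo and endosperm). The count of 6 for H2O2 in the embryo came without H2O2_embryo replicate 3, and that of 1 without any of the CK_embryo arrays. Under quantile normalization the higher and lower calls were 0 and 6 for H2O2 in the endosperm (otherwise 1 and 6), 2 and 1 for the tissue difference of ABA (3 and 0), 5 and 1 for that of H2O2 (5 and 2, or 4 and 1 with 75th percentile scaling) and 2 and 1 for ABA against H2O2 in the endosperm (2 and 3). Quantile normalization moved the median of all probe sets for H2O2 in the embryo from 0.12 to -0.01. The causes of these shifts were not tested. The share of all probe sets called was not counted under these alternatives, except without H2O2_embryo replicate 1. There it was 8.94% for the tissue difference of ABA, against 2.64% otherwise, as the members called went from 3 to 12. A moved count is therefore not read as more or fewer members responding. Dim members (34 under a signal of 100) limit what could be called.

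Same-numbered replicates did not deviate together (45 pairs, correlations from -0.0369 to 0.0738). Pairs of different number ran from -0.0733 to 0.062 (90 pairs). No pairing by number was thus detected, but these correlations cannot tell whether same-numbered tissues came from the same seeds. With the replicate number as a block the counts were 17 and 12 (ABA, embryo and endosperm), 2 and 7 (H2O2), 4 and 7 (tissue differences), 16 (tissues in CK), and 17 and 5 (ABA against H2O2). The share of all probe sets called with the block was not counted.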
